A study of Homo sapiens with 31 samples.

Results

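Of the 55371 circRNAs deposited for H9 cells on their way from the stem cell state to retina, 1949 had at least 5 back-splice reads summed over the 3 day 0 libraries. Among these, 296 (15.2%) had no more reads summed over the 3 untreated day 45 libraries than over day 0, and they are called non-rising here. The other 1653, called rising, had more. They were selected on raw reads of day 0 and untreated day 45, so those values describe the selection and are not evidence of a change. H9 is a human embryonic stem (ES) cell line. Cultures were plated in triplicate and total RNA, depleted of ribosomal RNA, was sequenced in 3 libraries each at day 0, at day 45 and day 90 without treatment, and at day 45 and day 90 with recombinant human IGF-1, an insulin-like growth factor, given at 5 ng/ml to day 37 and at 10 ng/ml thereafter. All groups came from this line, whole cultures were harvested, and p-values measure only the spread between these cultures.

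A circRNA forms when the splice donor at the end of an exon is joined to an acceptor further upstream in the same transcript. This back-splice closes the RNA into a ring without free ends, which exonucleases digest poorly. Circular forms of many genes are known to accumulate in neural tissue and in cells that stop dividing. The back-splice junction is the only part of the ring that distinguishes its reads from those of the linear transcript, so each value here is a count of reads across that junction. A name such as FIRRE E10-E5 gives the host gene, the donor exon and the acceptor exon, as numbered in the transcript that the deposited name cites.

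The junctions below are shown because they carry the most reads of their gene or the widest gap between day 0 and later groups. Each line holds 40 bases before and 40 bases after the junction, read 5′ to 3′ from GRCh37, and the capitals mark the 8 bases on each side of it.
FIRRE E10-E5: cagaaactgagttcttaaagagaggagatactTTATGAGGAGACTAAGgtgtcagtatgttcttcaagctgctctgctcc
FIRRE E9-E5: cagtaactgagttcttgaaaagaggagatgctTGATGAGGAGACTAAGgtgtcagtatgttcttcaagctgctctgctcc
KCNN2 E4-E4: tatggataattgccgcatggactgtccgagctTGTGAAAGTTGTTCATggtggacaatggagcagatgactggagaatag
DOCK1 E27-E2: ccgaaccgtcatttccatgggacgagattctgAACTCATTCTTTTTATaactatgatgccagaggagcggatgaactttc
OSBPL10 E3-E2: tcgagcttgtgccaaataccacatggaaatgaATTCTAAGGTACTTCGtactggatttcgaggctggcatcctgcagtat
USP44 E5-E4: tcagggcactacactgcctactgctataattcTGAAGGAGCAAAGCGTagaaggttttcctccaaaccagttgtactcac
DIAPH2 E26-E24: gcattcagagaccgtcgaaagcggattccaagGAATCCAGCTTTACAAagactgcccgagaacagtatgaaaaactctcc
DIAPH2 E25-E24: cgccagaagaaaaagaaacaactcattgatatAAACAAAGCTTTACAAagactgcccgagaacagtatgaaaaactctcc
The pair from FIRRE shares its acceptor, exon 5, and the pair from DIAPH2 shares its acceptor as well, so the bases after the junction are the same within each pair. In the genome, 291 of the 296 non-rising circRNAs were preceded by AG and followed by GT, the usual letters of an acceptor and a donor, and the remaining 5 by AG and GC. The rising circRNAs had the first pair of letters in 1643 of 1653 and the second in 10.

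Libraries held between 14992 and 108946 back-splice reads, the day 0 libraries between 14992 and 17929. In reads per 1000000 sequenced reads (RPM), all circRNAs together reached 118 ± 10.96 at day 0 and 747 ± 206 at day 45 (SD, n = 3 libraries in each group). The RNA integrity that the labels give fell with time, and its part in these levels was not tested. Of 14 ES cell marker genes, 7 had any circRNA, among them USP44 and TERF1, and none was listed for POU5F1, NANOG or SOX2. The summed level of these markers lay between 0.0703 and 0.152 RPM in the day 0 libraries and between 0 and 0.0473 RPM in the later ones. Of their 43 day 0 reads, USP44 held 19 and TERF1 18. Non-rising circRNAs, 2 in number, held 23 of the 43, so the selection sets this difference in part. SALL4 had 2 reads over day 0 and 3 over day 90. Of 16 genes that mark retina or its precursors, 12 had no circRNA in any library. None of the 16 had a circRNA read at day 0, and ELAVL3, LHX2 and RORB had 10 over the day 90 libraries. In 34 genes of mesoderm, endoderm and mesenchyme, of which 25 had no circRNA, 1 read was counted at day 0 and 8 at day 90. All circRNAs together were also higher at day 90, at 485 RPM. In bulk RNA, fewer cells of a type and less RNA per cell cannot be told apart.

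Together the non-rising circRNAs held 12.2% ± 1.28 of the back-splice reads of a day 0 library and 1.13% ± 0.0283 of those of an untreated day 90 library, which the selection did not use. Their summed level was 14.3 ± 0.392 RPM at day 0, 5.47 ± 1.78 at day 90, 7.46 ± 1.46 at day 45 with IGF-1 and 6.77 ± 0.732 at day 90 with IGF-1. Every library of those later groups lay below every day 0 library. Without the circRNAs of FIRRE the summed level was 10.9 ± 0.803 RPM at day 0 and 4.65 ± 1.46 at day 90. All these comparisons rest on the day 0 reads used for the selection, so they are not evidence of a change. The share also depends on the level of all circRNAs together, 118 RPM at day 0 and 485 at day 90.

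**Figure D1:**
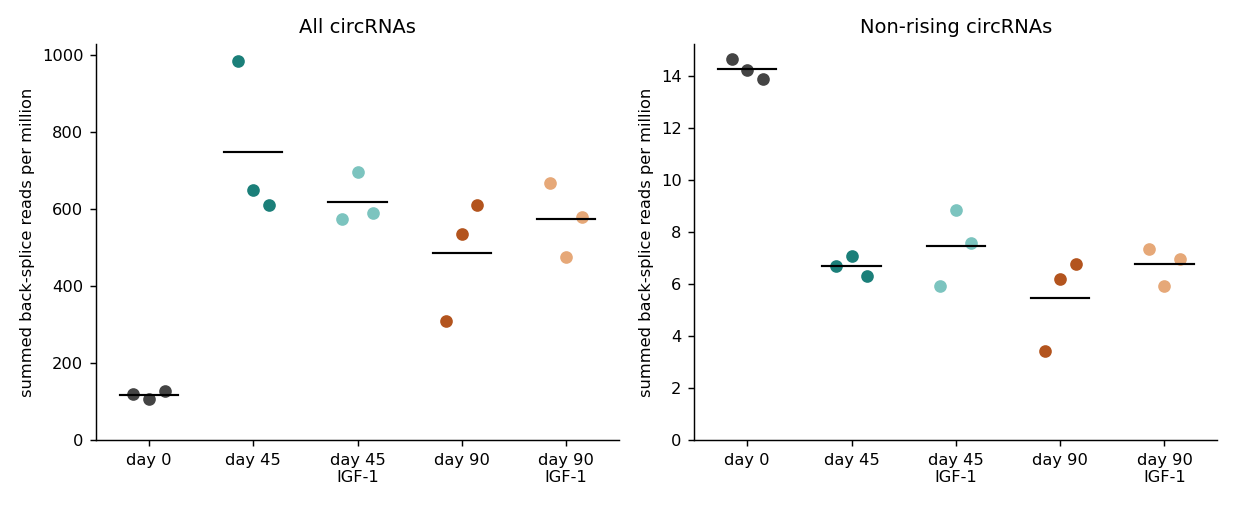
Summed back-splice reads per 1000000 sequenced reads in each library (points) and the mean of 3 libraries (bars), for all circRNAs and for the 296 non-rising ones, by group. All circRNAs together lie near 118 at day 0 and above that in every later library, while the non-rising circRNAs lie near 14.3 at day 0 and lower later.

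Most non-rising circRNAs were scarce. Their median was 7 reads over day 0, 188 had under 10, 48 had 20 or more and 10 had 100 or more. They were found in all 3 day 0 libraries in 186 cases, in 2 in 83 cases and in a single library in 27 cases, the last with at most 8 reads. A sum of 5 reads, the lower limit of the selection and the value of 83 of them, has an exact Poisson 95% interval of 1.62 to 11.7 reads, which covers counting error only. Just inside the limit on day 45 were 27 circRNAs with equal sums, led by TRIM24 E7-E2 (19 and 19 reads), USP46 E4-E2 (15 and 15) and SLC37A3 E7-E4 (12 and 12). Just outside were 34 with 1 read more at day 45, led by ZNF644 E4-E2 (46 and 47), DNA2 E5-E2 (26 and 27) and EIF3E E7-E2 (20 and 21). A further 186 circRNAs had 4 day 0 reads and no more at day 45.

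FIRRE, a long non-coding RNA (lncRNA) gene of the X chromosome whose transcript is known to hold a repeated domain and to act in nuclear organisation, gave more non-rising circRNAs than any other gene. Of its 20 circRNAs, 10 had at least 5 day 0 reads and all 10 were non-rising. FIRRE E10-E5 (chrX:130883334-130928494, minus strand, 6 exons, 845 bases spliced) had 380, 457 and 247 reads at day 0, which made it the most abundant circRNA of all at that time. It had 18, 173 and 171 reads at untreated day 45, 51, 129 and 126 at day 90, 10, 131 and 161 at day 45 with IGF-1, and 116, 108 and 84 at day 90 with IGF-1. All 12 later libraries lay below all day 0 libraries. Replicate 1 stood far below the others of its group at day 45, both with and without IGF-1. Without it the mean level at untreated day 45 was 1.21 RPM instead of 0.86, and at day 45 with IGF-1 1.06 instead of 0.741. The level was 2.67 ± 0.793 RPM at day 0 and 0.707 ± 0.299 at day 90, a fitted log2 change of -1.92 ± 0.40 (SE) that rests in part on the day 0 reads used for the selection. By reads it ranked 46 among all circRNAs at day 90.

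FIRRE E9-E5 (chrX:130889626-130928494, 692 bases spliced) uses the same acceptor and had 54, 61 and 33 reads at day 0 and 4, 7 and 4 at day 90. At untreated day 45 it had 1, 19 and 17 reads, so replicate 1 was again the low library. FIRRE E7-E6 had 39 reads over day 0, 3 over day 45 and 11 over day 90, and FIRRE E10-E6 had 28, 4 and 8. FIRRE E6-E5, E9-E6, E12-E5, E7-E5 and the single-exon rings E9-E9 and E10-E10 had between 6 and 19 reads over day 0 and at most 6 over day 90. FIRRE E10-E5 held 79% of the gene's back-splice reads at day 0 and between 85.5% and 87% in each later group.

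**Figure D2:**
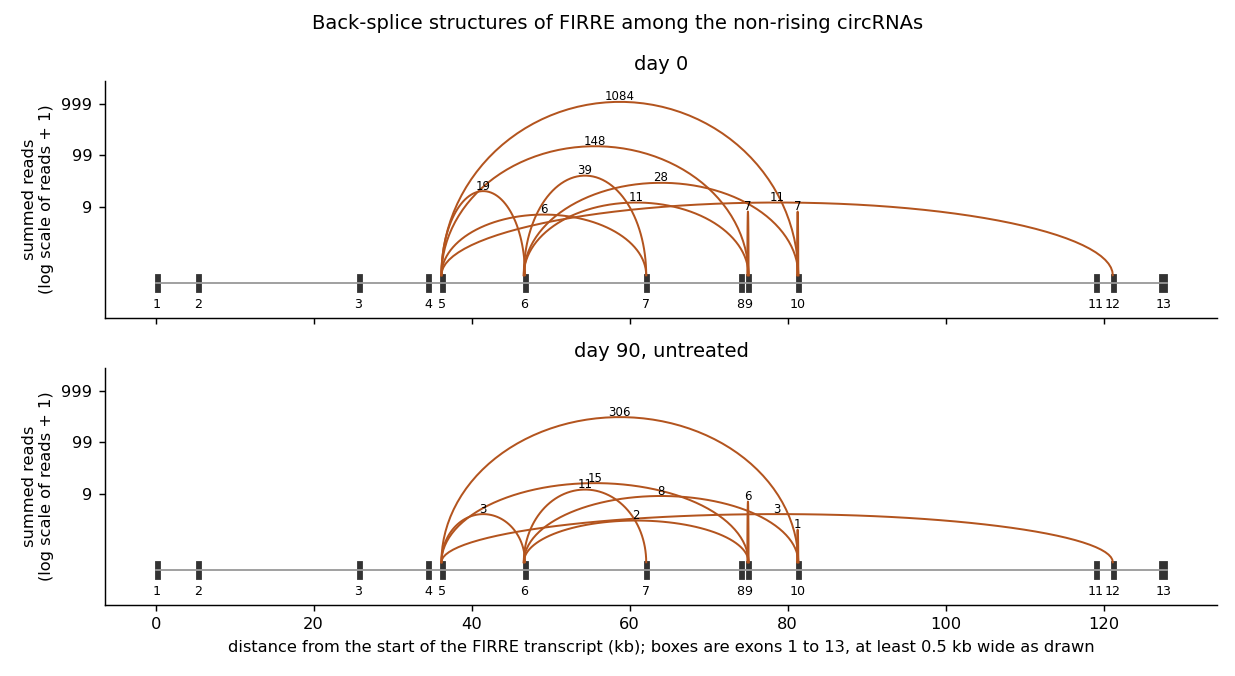
The 10 non-rising circRNAs of FIRRE drawn along the 13 exons of its transcript (boxes, numbered; distance from the transcript's start in kb), with each arc joining the outer ends of the circularised exons and its height and label giving the reads summed over 3 libraries on a log scale, at day 0 and at untreated day 90. The arc from exon 5 to exon 10 carries 1084 reads at day 0 and 306 at day 90, and arcs without reads are not drawn.

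Exons 7, 9 and 10 of FIRRE, which close most of its rings, resemble each other. They are printed because 8 of the 10 rings use one of them as donor or acceptor. In them the capitals mark the longest run of bases that all of them share, 12 bases in length.
FIRRE exon 7: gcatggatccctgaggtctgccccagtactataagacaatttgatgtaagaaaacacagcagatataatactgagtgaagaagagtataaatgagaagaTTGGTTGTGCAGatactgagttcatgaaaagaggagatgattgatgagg
FIRRE exon 9: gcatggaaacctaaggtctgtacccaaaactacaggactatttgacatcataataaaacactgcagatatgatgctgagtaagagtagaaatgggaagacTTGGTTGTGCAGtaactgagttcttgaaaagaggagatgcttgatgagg
FIRRE exon 10: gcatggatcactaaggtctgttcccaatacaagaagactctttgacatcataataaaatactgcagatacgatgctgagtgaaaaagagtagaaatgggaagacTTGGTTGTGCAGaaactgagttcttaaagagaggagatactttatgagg
Aligned in pairs, these exons were identical at 80.4% to 86.9% of columns, whereas exon 5 matched them at 49.1% to 51.7%. The last 40 bases of exons 9 and 10 differ at 5 positions, of which 1 lies within the 8 bases next to the junction. The split of reads between the FIRRE structures is therefore uncertain, and its effect on the values above was not tested.

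Beyond FIRRE, lncRNA hosts were SNHG14, SNHG12 and BTN2A3P. SNHG14, a long transcript of the imprinted region of chromosome 15 that hosts small nucleolar RNAs, had 5 non-rising circRNAs. SNHG14 E16-E15 had 10, 0 and 5 reads at day 0 and 1 read in the 12 later libraries. SNHG14 E15-E14 had 5, 0 and 6 reads at day 0 and 4 later, all of them at untreated day 45. SNHG14 E5-E5 rested on 6 reads of a single day 0 library. SNHG14 E3-E3 had as many reads over untreated day 45 and over day 90 with IGF-1 as over day 0, 9 each. SNHG12 E3-E2 had 8, 6 and 16 reads at day 0 and 1, 2 and 5 at day 90. In all, 17 of the 294 non-rising circRNAs with an assigned host (5.78%) came from lncRNA genes, against 6 of 1647 rising ones (0.364%). Counted by gene these were 4 of 240 hosts (1.67%) against 5 of 1119 (0.447%), and no test of this difference was made.

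Among protein-coding hosts, both non-rising circRNAs of DIAPH2 were close to absent in every later group. DIAPH2 encodes a formin that helps assemble actin. DIAPH2 E26-E24 (chrX:96603117-96684744, plus strand) had 14, 18 and 16 reads at day 0, and of the 12 later libraries only replicate 1 of day 90 with IGF-1 held any, 2 reads. DIAPH2 E25-E24 (chrX:96603117-96639043) had 6, 16 and 6 reads at day 0 and none in the 12 later libraries. At day 90 the first was at least 16.9-fold lower than at day 0, taking 3 counts over the group as the limit. Their start lies 2 bases inside an exon of DIAPH2 in the annotation used here, so they were placed in the gene by position and not by a matching exon.

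OSBPL10, which encodes an oxysterol-binding protein, gave OSBPL10 E3-E2 (chr3:31917925-31921322) with 13, 14 and 15 reads at day 0. In the 9 libraries outside the selection it had 4 reads in all, 3 of them in replicate 2 of day 45 with IGF-1. GRHL2 encodes a transcription factor of epithelia, and its single-exon ring GRHL2 E4-E4 (chr8:102570647-102571040) had 14, 18 and 19 reads at day 0. It had 0, 0 and 3 reads at day 90, 0, 12 and 0 at day 45 with IGF-1 and 2, 3 and 9 at day 90 with IGF-1. A single library held all the reads of day 45 with IGF-1. KCNN2 encodes a calcium-activated potassium channel, and KCNN2 E4-E4 (chr5:113740135-113740553, a ring of 419 bases) was the only circRNA of its gene. It had 42, 26 and 59 reads at day 0 and 2, 7 and 5 at day 90, or 0.313 ± 0.118 against 0.0325 ± 0.0182 RPM. LPAR3 encodes a receptor of lysophosphatidic acid, and LPAR3 E2-E2 had 11, 7 and 24 reads at day 0 and 5, 1 and 5 at day 90.

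DOCK1, an activator of the small GTPase Rac in cell movement and engulfment, gave rings of many exons. Its 4 non-rising circRNAs all begin at exon 2 and hold 22, 24, 26 and 28 exons. DOCK1 E27-E2 (chr10:128768966-128926028, 2738 bases spliced) had 31, 34 and 21 reads at day 0, 0, 2 and 3 at untreated day 45 and 4, 0 and 3 at day 90. DOCK1 E29-E2, E23-E2 and E25-E2 had 14, 12 and 12 reads over day 0 and 3, 6 and 0 over day 90. The other 69 circRNAs of DOCK1 went from 71 reads over day 0 to 151 over untreated day 45 and 100 over day 90, a contrast with the 4 that the selection itself sets in part.

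Of 16 circRNAs from pluripotency genes with at least 5 day 0 reads, 8 were non-rising, beside 15.2% of all such circRNAs. They came from 5 genes, and this list was drawn up with results of these data known. All 323 circRNAs of the list together had 314 reads over day 0, 980 over untreated day 45 and 755 over day 90. SINHCAF, a subunit of the Sin3 histone deacetylase complex, gave SINHCAF E4-E2 with 14, 10 and 7 reads at day 0, 0, 4 and 1 at day 90 and 6, 6 and 5 at day 45 with IGF-1. USP44, a deubiquitinase of histone H2B that is abundant in ES cells, gave USP44 E5-E4 with 8, 1 and 7 reads at day 0, 2 at day 45 with IGF-1 and none in the other later groups. POLR3G, the subunit that marks the ES cell form of RNA polymerase III, gave 4 non-rising circRNAs. POLR3G E7-E4 had 8, 10 and 5 reads at day 0 and 1, 1 and 1 at day 90, and both rings named E7-E2, of 618 and 657 spliced bases, had 10 and 7 reads at day 0 and none later. The longer of these holds both ends of the coding sequence annotated for the transcript used here, which need not be the gene's full reading frame. EPCAM E3-E2, from a gene of epithelial adhesion, had 8 reads over day 0 and 3 over day 90, and TERF1 E8-E6, from a telomere-binding protein gene, had 7 and 4.

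Of 61 circRNAs with at least 5 day 0 reads from genes of DNA replication, repair and the cell cycle, 20 were non-rising (32.8%). Over all circRNAs with that many day 0 reads the share was 15.2%. The 20 came from 19 genes and had 5 to 15 reads over day 0. RAD18 E7-E5, from a ubiquitin ligase of replication past damaged bases, led them with 4, 5 and 6 reads at day 0 and 2, 1 and 2 at day 90. In genes of splicing, RNA processing and the nucleolus 8 of 49 with at least 5 day 0 reads were non-rising (16.3%), near the share over all. DDX21 E2-E2, from a helicase of the nucleolus, had 25, 32 and 16 reads at day 0 and 4, 10 and 21 at day 90, with overlapping groups. NOP58 E12-E11, from a core protein of box C/D small nucleolar ribonucleoproteins, had 3, 5 and 5 reads at day 0 and 1, 2 and 0 at day 90. Of 8 with at least 5 day 0 reads from epithelial adhesion genes, 4 were non-rising. These were GRHL2 E4-E4, EPCAM E3-E2 and both from ITGB5, an integrin gene. All circRNAs of the replication list together had 1431 reads over day 0, 4285 over untreated day 45 and 3020 over day 90. Those of the RNA processing list had 1219, 5846 and 4303, and those of the epithelial list 193, 371 and 212. The list of neural and retinal development genes had a single circRNA with at least 5 day 0 reads, which was rising, and the list of other germ layers had none.

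Counting reads of non-rising circRNAs over day 0, the most abundant protein-coding host was SPECC1, which encodes a coiled-coil protein. SPECC1 E2-E2 (chr17:20107646-20109225) is a single exon of 1580 bases with 94, 120 and 89 reads at day 0, 27, 74 and 39 at day 90 and 43, 81 and 27 at day 90 with IGF-1. Its level was 0.744 ± 0.104 RPM at day 0 and 0.328 ± 0.18 at day 90, and the libraries did not overlap. PRKD3 E2-E2, from a protein kinase D gene, had 40, 32 and 31 reads at day 0 and 8, 15 and 15 at day 90. FAT1 E3-E2, from an atypical cadherin gene, had 17, 13 and 17 reads at day 0 and 3, 6 and 3 at day 90. The other circRNAs of FAT1 had 287 reads over day 0 and 477 over untreated day 45. They had 383 over day 45 with IGF-1 and 196 over day 90, and the selection itself sets this contrast in part. UGP2 E4-E3, from the gene of the enzyme that makes UDP-glucose, had 21, 22 and 46 reads at day 0 and 5, 14 and 19 at day 90. DNAJB6 E8-E6, from a co-chaperone gene, had 15, 18 and 34 reads at day 0 and 2, 13 and 4 at day 90.

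FAM169A gave 3 non-rising circRNAs that share the acceptor of exon 2 and differ in their donor. The ring of 4 exons (chr5:74130251-74137504) had 43, 32 and 81 reads at day 0 and 21, 34 and 47 at day 90. The ring of 5 exons (chr5:74109665-74137504) had 23, 19 and 68 reads at day 0 and 7, 10 and 14 at day 90. The ring of 3 exons, FAM169A E4-E2, had 4, 0 and 7 reads at day 0 and 0, 5 and 7 at day 90. Thus the fitted log2 change from day 0 to day 90 was -0.70 ± 0.43 (SE) for the ring of 4 exons, -1.89 ± 0.50 for that of 5 and 0.02 ± 0.80 for that of 3. Day 0 replicate 3 held the most reads of each of them at day 0. Without it the changes were -0.27, -1.13 and 0.82, and the adjusted p of the ring of 5 exons by edgeR's quasi-likelihood test went from 0.00172 to 0.143. These changes rest in part on the day 0 reads used for the selection, so nothing is read from the adjusted p.

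Of the remaining genes with at least 3 non-rising circRNAs, SKA3 and MASTL encode a kinetochore protein and a mitotic kinase, DMC1 the recombinase of meiosis, and TAF4B a subunit of the general transcription factor TFIID. SKA3 E4-E4 had 14, 14 and 17 reads at day 0 and 6, 5 and 11 at day 90. DMC1 E13-E2 had 2, 7 and 12 reads at day 0 and 1, 2 and 0 at day 90, and DMC1 E12-E2 had 4, 5 and 5 at day 0 and none in the 9 libraries outside the selection. MASTL E8-E8, E9-E8 and E11-E8 share an acceptor and had 17, 10 and 5 reads over day 0 and 4, 4 and 1 over day 90. The 3 rings of TAF4B share the acceptor of exon 10 and had 7 reads each over day 0 and 1, 1 and 3 over day 90. The 3 rings of PRR14L had 5 reads each over day 0, each in a single library.

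In other non-rising circRNAs the day 90 libraries lay partly within the range of day 0. SKIL encodes a repressor of TGF-beta signalling, and SKIL E3-E2 (chr3:170077487-170079217) had 53, 38 and 30 reads at day 0, 36, 48 and 53 at day 90 and 64, 50 and 64 at day 90 with IGF-1. ADAMTS19 E6-E4, from a secreted metalloprotease gene, had 39, 45 and 25 reads at day 0, 28, 26 and 60 at day 90 and 79, 37 and 46 at day 90 with IGF-1. AASS E11-E2, from a gene of lysine breakdown, had 25, 33 and 48 reads at day 0 and 16, 20 and 31 at day 90, and MTCL1 E4-E3, from a microtubule protein gene, had 10, 14 and 23 and 8, 8 and 18. The groups of day 0 and day 90 overlapped in RPM for each of these 4. ZNF215 E5-E2 had 26, 19 and 13 reads at day 0 and 13, 17 and 28 at day 90, but 0, 33 and 0 at untreated day 45, where a single library held all of them. The remaining 2 of the 25 most abundant, FGD6 E2-E2 and MDN1 E23-E22, had 74 and 51 reads over day 0 and 36 and 20 over day 90.

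RAPGEF5, an exchange factor for Rap and Ras GTPases, gave the only non-rising circRNA tested whose rise from day 0 to day 90 passed the test. That contrast shares its day 0 libraries with the selection and is given as a description only. RAPGEF5 E6-E2 (chr7:22330794-22357656, 5 exons) had 12, 21 and 11 reads at day 0, 6, 9 and 1 at untreated day 45 and 22, 43 and 65 at day 90. Every day 90 library had more RPM than every day 0 library. The log2 change was 1.46 ± 0.48 (SE), with an adjusted p of 0.0157 by edgeR's quasi-likelihood test with Benjamini-Hochberg adjustment over 12498 circRNAs. Without day 90 replicate 3 it was 1.12 (adjusted p = 0.133), and without day 0 replicate 1 or 3 the adjusted p was 0.0617 or 0.08, both by the same edgeR fit. Without the filter on low counts it was 1.46 with an adjusted p of 0.0691, and the change was 0.17 under TMM and 0.46 with DESeq2 size factors, with an adjusted p of 0.809 and 0.451. With IGF-1 it had 24, 28 and 16 reads at day 90. The other circRNAs of RAPGEF5 had 53 reads over day 0, 59 over untreated day 45 and 184 over day 90.

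**Figure D3:**
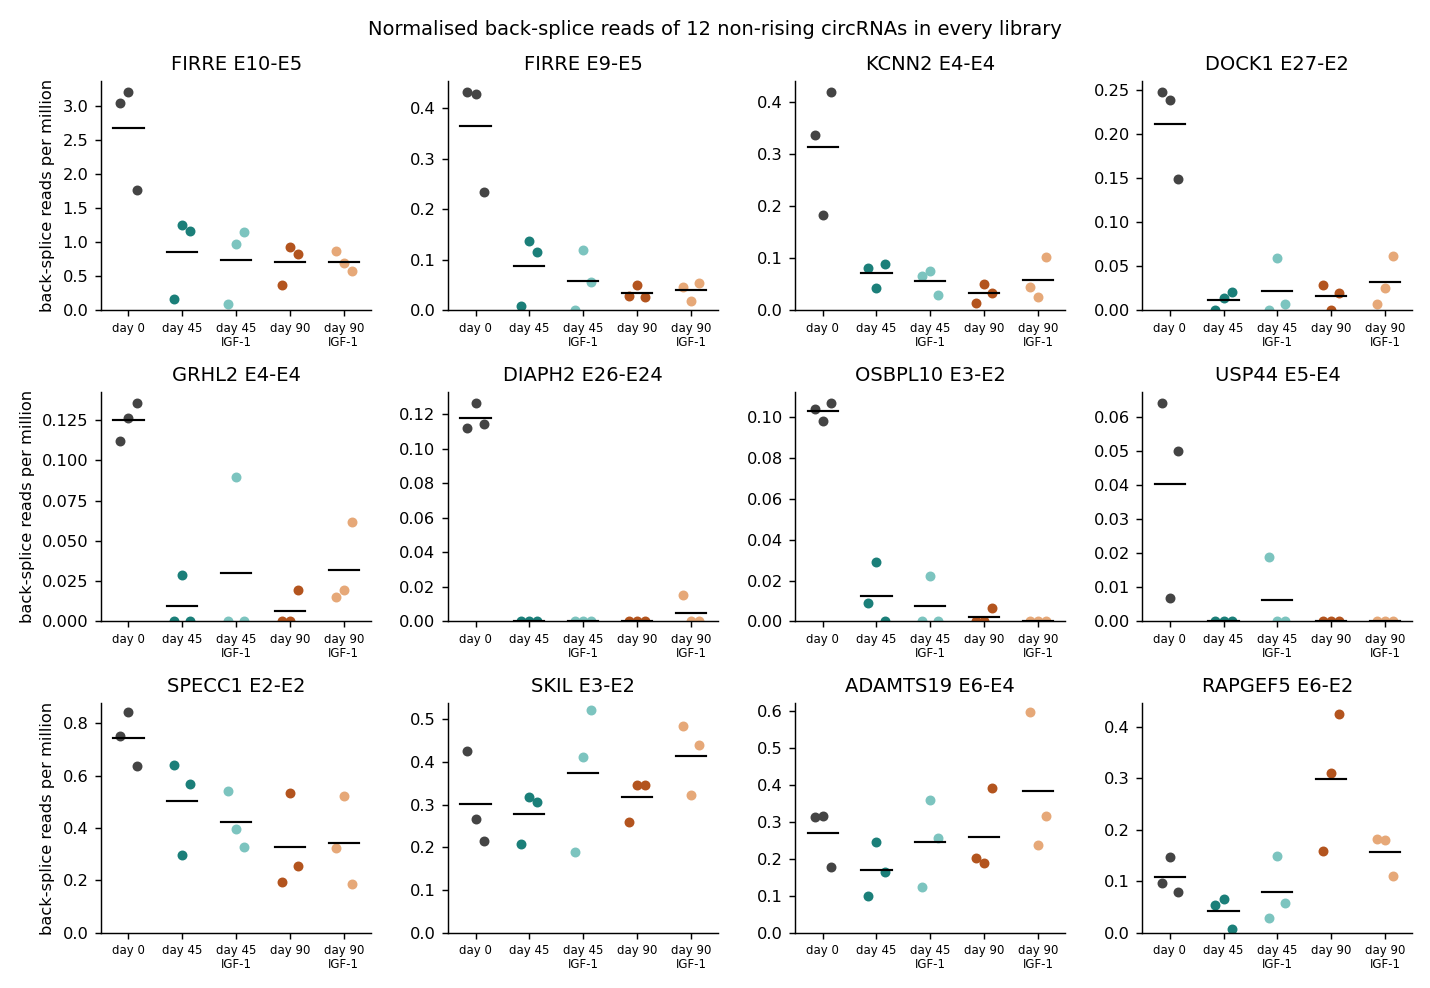
Back-splice reads per 1000000 sequenced reads of 12 non-rising circRNAs in every library (points) with the mean of 3 libraries (bars), by group, each panel on its own linear axis from 0. FIRRE E10-E5 has a mean of 2.67 at day 0 and 0.707 at day 90, DIAPH2 E26-E24 has reads in 1 of the later libraries, and RAPGEF5 E6-E2 is higher at day 90 than at day 0.

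In the groups that played no part in the selection, most non-rising circRNAs again had no more reads than over day 0, a measure that shares the day 0 reads with the selection. This held for 275 of 296 at day 90, where it held for 23.8% of all 1949 circRNAs with at least 5 day 0 reads. With IGF-1 it held for 256 at day 45, beside 18.9%, and for 247 at day 90, beside 19.4%. In 224 of the 296 it held in all later groups, and in 8 it held in none of the groups outside the selection, SKIL E3-E2 among them. The median ratio of day 90 to day 0 levels in RPM was 0.28 for the non-rising circRNAs and 2.21 for all 1949. Between the later times, 186 were lower at untreated day 90 than at untreated day 45 in mean RPM and 83 were higher. The day 45 reads are among those used for the selection, and all circRNAs together went from 747 to 485 RPM between these groups. At day 90, 60 had no read, and 14 had none in the 9 libraries outside the selection. In all 12 later libraries, which include untreated day 45, 11 had none, with up to 28 reads over day 0. No share over all 1949 was taken for these counts.

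By library, every day 90 value lay below every day 0 value for 83 of the 296, beside 5.13% of the 1949. The same held for 50 at day 45 with IGF-1, beside 2.92%, and for 72 at day 90 with IGF-1, beside 4.05%. It held in all 9 of these libraries for 35, beside 1.8%. The 1949 include the 296, and the day 0 values are those of the selection, so these counts are not evidence of a change.

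**Figure D4:**
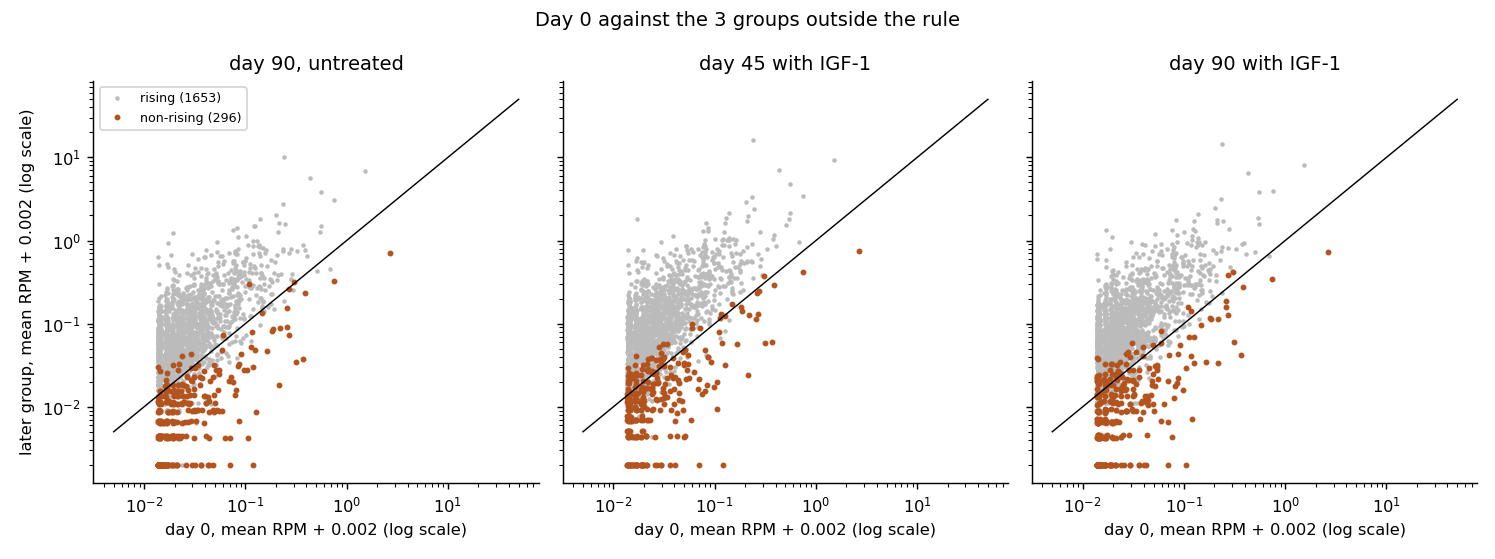
Mean level of each of the 1949 circRNAs with at least 5 day 0 reads at day 0 (x axis) and in the 3 groups outside the selection (y axis), in RPM with 0.002 added, on log axes, with 296 non-rising circRNAs in colour, 1653 rising ones in grey and the line of equal levels. In the day 90 panel 277 of the 296 lie below the line, and the lowest row holds those with no read.

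In the fit across all circRNAs, 267 of the 296 had at least the 10 counts needed for testing. From day 0 to day 90, 36 of them were called lower, beside 0.328% of the 12498 tested (41 in all), and 1 was called higher, beside 21.7%. From day 0 to day 45 with IGF-1 27 were called lower (0.224% of all), and from day 0 to day 90 with IGF-1 33 (0.264%). The contrast of the selection itself, day 0 to untreated day 45, gave 32 lower, beside 0.256% of all. All these contrasts share the day 0 libraries with the selection, so nothing is read from the counts.

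Comparisons between groups outside the selection do not contrast with day 0. The 10 counts needed for testing could, however, come mostly from the day 0 reads of the selection. Of the non-rising circRNAs, 60 had no read at untreated day 90. With IGF-1, 51 had none at day 90 and 40 had none at day 45. With so few reads, 0 calls cannot show that levels were equal between these groups. Between day 90 with and without IGF-1, edgeR called 0 of the 267, and DESeq2 0, while 15 had an unadjusted p under 0.05. Over all 12498, 0.008% were called, and 521 had an unadjusted p under 0.05. Of the 267, 12 had no read in either group, and nothing can be read from their fitted values. Of the 255 with a read, 160 had a higher and 95 a lower fitted level with IGF-1. Over the 12435 of all circRNAs tested that had a read, 7541 were higher and 4894 lower. The median log2 difference was 0.38 for the 255 and 0.21 over the 12435. For FIRRE E10-E5 the log2 difference was 0.02 ± 0.39 (SE), and for SPECC1 E2-E2 0.07 ± 0.42. Between day 45 and day 90 with IGF-1, edgeR again called 0 of the 267, and DESeq2 0, with 12 at an unadjusted p under 0.05, beside 0.016% called over all. Here 10 of the 267 had no read in either group, and the median log2 difference of the other 257 was -0.19, beside -0.14 over all with a read.

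In exon structure the non-rising circRNAs were set beside the 1653 rising ones, as counts and without a test. Exon structures were found for 294 and 1647. A single exon made up 40 of the 294 (13.6%), against 7.35% of the rising ones, and 26 held 10 or more exons (8.84%), against 2.79%. Among circRNAs with 5 to 9 day 0 reads the share with a single exon was 11.7% against 6.59%, and among those with 20 or more it was 26.1% against 10.3%. The first circularised exon was exon 2 in 47.6% of the non-rising and 39.3% of the rising circRNAs. The start codon lay inside the ring in 26.2% against 17.1%, and the ring held only coding sequence in 64.6% against 76.3%. The median number of exons was 3 in both. The median spliced length was 515.5 against 423 bases, the median upstream intron 8204.5 against 10513.5 bases and the median downstream intron 9290.5 against 8628 bases. In genomic span the non-rising circRNAs ran from 104 bases, in CTBP2 E2-E2, to 432649 bases, in SUPT3H E9-E1, with a median of 8814 against 7123. As 57 of the 296 share a junction end with another of them, these are not independent.

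**Figure D5:**
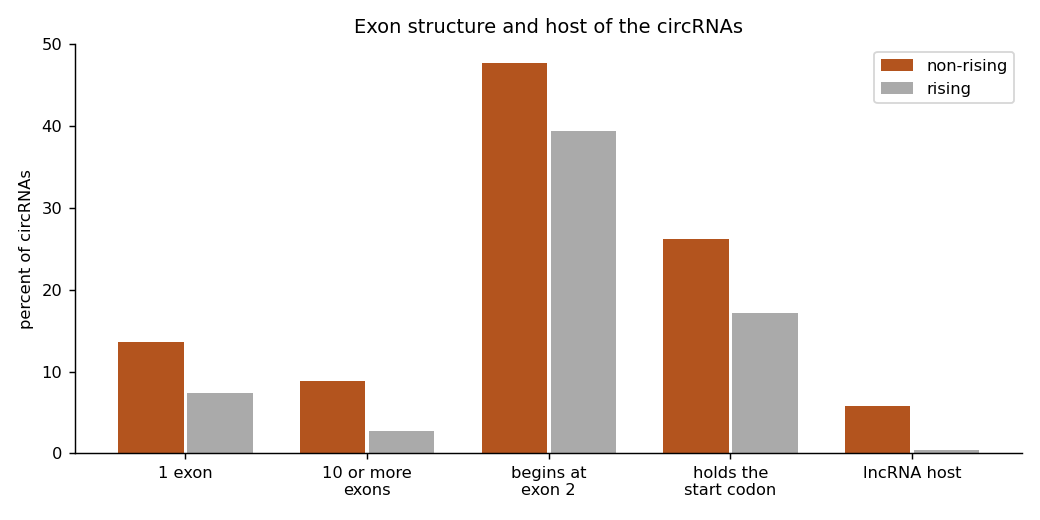
Percent of the non-rising and the rising circRNAs that consist of 1 exon, hold 10 or more exons, begin at exon 2 of their transcript, hold the start codon, or come from an lncRNA gene. The bars for the non-rising circRNAs are the higher ones in each pair, with 13.6% against 7.35% for a single exon.

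Of the 240 host genes, 33 gave 2 or more non-rising circRNAs and 224 gave other circRNAs as well. Counting all circRNAs of a gene together, 92 of the 240 hosts had no more reads at untreated day 45 than at day 0 and 148 had more, which rests on the reads used for the selection. Over all 1877 genes with at least 5 day 0 reads, 142 (7.57%) had no more. In 183 of the 224 the other circRNAs of the gene had more reads at untreated day 45 than at day 0. Any of these with at least 5 day 0 reads is rising by the selection, which sets this count in part, so nothing is read from it. At day 90 the summed reads of all circRNAs of the gene were at or below day 0 in 130 of the 240, beside 13.6% of the 1877, and the day 0 reads are again those of the selection.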

How the data were processed

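Back-splices were identified by the authors with PTESFinder, using hg19 and GENCODE 19, and the deposited values are raw counts of back-splice reads per circRNA and library, neither normalised nor pooled. Library names a, b and c were read as replicates 1, 2 and 3. FIRRE amplicon libraries were not analysed here. Starts were converted to count from 1. The circRNAs, gene lists and rule for naming genes were chosen with earlier results of these data known. Named were the 25 with most day 0 reads, those of pluripotency genes, any called between groups outside the selection, the 5 with most reads outside it, those at its limits and those of genes with at least 3; other lists give those with most day 0 reads.

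Hosts and exons came from GENCODE 44 lifted to GRCh37, which uses the same coordinates as hg19. Of the 296, 267 were matched by transcript, 27 by exon ends and 2 by position. List genes were matched through older symbols where needed. RPM are counts per 1000000 sequenced reads as the study lists them, with the mean used for day 90 replicates 1 and 2, whose lines its table does not tell apart. A count of 0 over a group allows up to 0.00692 to 0.0079 RPM, taking 3 counts as the limit. Counts with at least 10 reads over 15 libraries were fitted in edgeR 4.0.16 (R 4.3.3; quasi-likelihood test, all groups in 1 fit, sequenced reads as library sizes, common dispersion 0.179), with Benjamini-Hochberg adjustment over 12498 circRNAs at 0.05. Scripts were tested on simulated data. Alternatives were TMM, DESeq2 1.42.0 size factors and Wald test, other filters, a replicate block, other read numbers for day 90 and leaving out libraries. Intervals cover counting error only. Columns matching no sample numbered 0. Some items are not reported here.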

Additional observations from a re-analysis of the deposited data

How the results depend on the processing

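With 296 circRNAs as the value reported, the rule gave 269 on mean RPM, 108 with at least 10 day 0 reads and 1414 on the share of back-splice reads, since day 0 libraries hold fewer such reads; with 1 library left out it gave 197 (without day 0 replicate 3) to 332. Non-rising circRNAs at or below day 0 numbered 102 at day 90, 93 at day 45 with IGF-1 and 93 at day 90 with IGF-1 among the 108 with at least 10 day 0 reads, and 262 to 279, 231 to 257 and 239 to 250 with 1 library left out. Called lower, in the order untreated day 45, day 90, day 45 with IGF-1 and day 90 with IGF-1 against day 0, were 99, 89, 82 and 87 under TMM on back-splice totals, 90, 78, 75 and 81 with DESeq2 size factors, 18, 18, 12 and 18 without a filter, and 16, 30, 17 and 21 with DESeq2's Wald test. With at least 50 counts 59 remained in the test, and 15, 27, 15 and 18 were called. With the replicate block they were 23, 28, 21 and 29, all within 1.5 times the values reported. In the pairs of groups tested, deviations of same-numbered libraries from their group means correlated at -0.0485 to 0.0594. Between both day 45 groups, which were not tested against each other, these were 0.124, 0.0739 and 0.0391, and each library correlated best with its own number, a hint from the data and not the design. No pair of groups had every correlation over 0.1, so the samples were taken to share only a number. With 1 library left out the counts were 21 to 30 (21 without day 0 replicate 1 or 2 or day 45 replicate 3), 25 to 30, 17 to 22 (17 without day 0 replicate 3 or replicate 1 or 3 of day 45 with IGF-1) and 19 to 25 (19 without replicate 1 of day 90 with IGF-1). Both comparisons outside the selection stayed at 0 in every alternative run, with 0 to 0 when 1 library was left out. SKIL E3-E2, at 0.08 in log2 from day 0 to day 90, was -1.14 under TMM. RAPGEF5 E6-E2 was no longer called under TMM (0.17), with DESeq2 size factors (0.46) or without a filter (1.46). The causes were not tested.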

Other observations

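In 2 hosts, chosen after their values were seen, the non-rising ring was set beside the other circRNAs of the gene. The selection itself sets such a contrast in part. The non-rising ring of EXOC6B, a subunit gene of the exocyst, had 5 reads over day 0, 3 over untreated day 45 and 1 over day 90, while the other circRNAs of the gene had 104, 1132 and 785. ITPR2, which encodes a calcium channel of the endoplasmic reticulum, went the other way: its non-rising ring had 6, 0 and 0 reads, and its other circRNAs had 49, 9 and 15.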
